A study of Homo sapiens with 12 samples.

Results

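Aminoacyl-tRNA synthetases are the enzymes that join each amino acid to its transfer RNA, and 36 genes for them were examined here among the 57500 genes of the deposited count table. They were chosen by name alone: 20 genes for enzymes of the cytosol and 16 for enzymes of the mitochondrion, whose names end in S2. All 36 were found under these names, and all 36 passed the filter on low counts in every comparison. The study sequenced total RNA of 2 human triple-negative breast cancer lines, HCC1806 and MDA-MB-468, with and without CRISPR-Cas9 depletion of PACT, the double-stranded RNA binding protein encoded by PRKRA. HCC1806 cells carried either the control guide sgC1 or the PRKRA guide sgPACT-2, and MDA-MB-468 cells carried either the control guide sgNTA or sgPACT-2. With 3 libraries in each of the 4 groups there were 12. No drug, time point or clone is named in the labels. A single PRKRA guide was used, so other effects of that guide and the depletion of PACT cannot be told apart. Nothing in the labels says that the replicates were separate cultures, so the p-values measure only the spread between these libraries, which may be technical.

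Protein is made in the cytosol and in the mitochondrion, and each compartment needs its own charged tRNAs. Most cytosolic synthetases and their mitochondrial counterparts are encoded by separate nuclear genes, while GARS and KARS each give rise to both forms and EPRS charges both glutamate and proline. The enzymes fall into class I and class II by the fold of their catalytic domain, and several of the cytosolic ones sit together in the multi-synthetase complex. Uncharged tRNA leads to phosphorylation of eIF2alpha through one kinase and double-stranded RNA through another, PKR, to which PACT binds. The transcription factor ATF4 is then translated and raises a set of genes for amino acid supply that includes many cytosolic synthetases. ATF4 binds a composite element, made of a C/EBP and an ATF part, in the promoters of its targets. WARS is in addition known as a gene induced by interferon-gamma.

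The promoter stretches below are shown because the cytosolic genes differ in whether they carry the core of that element, TGATGNAA on either strand. RefSeq promoters (build GRCh38.p14, 250 bases before to 50 bases after a start) were matched for 30 of the 36 genes, 16 cytosolic and 14 mitochondrial, in 39 windows. The core was found in 7 of the 16 cytosolic genes and in 1 of the 14 mitochondrial genes, YARS2. Counted by window, it was in 7 of 21 cytosolic and 1 of 18 mitochondrial windows, and in 3.62% of all 35116 windows. It is in capitals in each line, which runs 5′ to 3′ on the strand of the gene. Capitals beginning with TTT or TTG are the core read on the other strand.
TARS: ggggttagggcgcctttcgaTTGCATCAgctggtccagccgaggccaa
IARS: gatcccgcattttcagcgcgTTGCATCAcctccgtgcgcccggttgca
CARS: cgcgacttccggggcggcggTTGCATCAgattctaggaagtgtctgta
MARS: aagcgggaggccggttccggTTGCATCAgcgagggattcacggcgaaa
AARS: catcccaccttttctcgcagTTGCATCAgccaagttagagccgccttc
GARS: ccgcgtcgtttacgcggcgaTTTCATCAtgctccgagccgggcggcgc
NARS: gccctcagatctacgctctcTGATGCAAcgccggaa
YARS2: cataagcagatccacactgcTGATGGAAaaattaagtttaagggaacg
The same 8 letters, TTGCATCA, stood in TARS, IARS, CARS, MARS and AARS, and their reverse complement in NARS. In IARS (chr9:92293703-92293710), CARS (chr11:3057418-3057425) and MARS (chr12:57488064-57488071) the core began 13, 2 and 4 bases before the start that RefSeq gives for the window. In TARS (chr5:33440967-33440974) and NARS (chr18:57621815-57621822) it began at base 3 and base 15 of the transcript. In GARS (chr7:30594845-30594852), AARS (chr16:70289686-70289693) and YARS2 (chr12:32756087-32756094) it began 33, 187 and 197 bases before the start. The CRE, TGACGTCA, was in none of the members' windows and in 1.85% of all windows. The core of the interferon element (GAAA, any 2 bases, GAAA, on either strand) was in the windows of WARS and EARS2 and in 3.57% of all windows. It is given for WARS (chr14:100375393-100375402), since this gene had the smallest p of the cytosolic members in both lines.
WARS: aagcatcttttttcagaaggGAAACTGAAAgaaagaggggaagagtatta
These matches describe letters in 300-base windows. No binding was measured.

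Total counts ran from 18640633 to 24704877 per HCC1806 library and from 34581754 to 44790741 per MDA-MB-468 library, and single members had 105 (PARS2) to 21763 (IARS) counts in a library. PRKRA measured 77.8 ± 5.30 CPM (counts-per-million scaled by TMM; SD, n = 3) in control and 36.9 ± 0.774 in depleted HCC1806 cells, and 44.7 ± 3.12 and 38.8 ± 3.09 in MDA-MB-468. Its log2 fold change was -1.06 (edgeR, adjusted p 0.00311) in HCC1806 and -0.19 (adjusted p 0.383) in MDA-MB-468, so depletion in the latter line rests on its label. The spread between replicates was wider in HCC1806: the biological coefficient of variation, the relative SD beyond counting error, was 0.204 against 0.0936. All 5 epithelial markers (EPCAM, KRT8, KRT18, CDH1 and KRT5) were expressed in both lines, and PGR, CD3E, PTPRC and COL1A2 were at or near 0. In the controls of HCC1806 and MDA-MB-468 the means were 20.9 and 6.67 CPM for ESR1, the estrogen receptor gene, 194 and 139.8 for ERBB2, and 33.4 and 19.8 for COL1A1, a fibroblast marker. The other immune, fibroblast and endothelial markers (CD68, PDGFRB, PECAM1 and VWF) had control means of at most 2.92 CPM. Every depleted library lay below every control library for EPCAM and ERBB2 in both lines. The same held for CDH1 and KRT5 in HCC1806, while these markers overlapped in MDA-MB-468. KRT8 and KRT18 overlapped in both lines. None of these markers passed the test. Of all genes tested, 8.95% were lower without overlap with HCC1806 fitted alone. With MDA-MB-468 fitted alone, the share was 7.96%. The part of these marker differences in the synthetase values was not tested.

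Before any effect of the guide, the lines differed in how much synthetase RNA they held. All 20 cytosolic genes were higher in MDA-MB-468 controls than in HCC1806 controls and passed the test (edgeR on all 12 libraries, adjusted p under 0.05), where 34.2% of the 27029 genes tested were called higher and 40.1% lower. Their log2 differences ran from 0.49 (AARS) to 2.60 (GARS) with a median of 1.27, and the median of all genes was -0.26. Of the 16 mitochondrial genes 11 were higher, 3 (YARS2, CARS2 and LARS2) were lower, and IARS2 and NARS2 did not pass; their median was 0.57. Line and control guide cannot be told apart in this comparison.

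GARS, the glycine enzyme of both compartments, had the largest of these differences. It measured 72.6, 60.8 and 74.3 CPM in the HCC1806 controls and 432, 408 and 425 in the MDA-MB-468 controls, a log2 difference of 2.60 (SE 0.11, edgeR adjusted p 8.3e-13). Next came SARS, the serine enzyme, at 2.10, CARS, the cysteine enzyme, at 1.90, and NARS, the asparagine enzyme, at 1.89. The mitochondrial proline enzyme PARS2 led its list at 1.75. In the other direction YARS2, the mitochondrial tyrosine enzyme, measured 27.4, 26.7 and 25.8 CPM in HCC1806 controls and 12.1, 13.8 and 13.8 in MDA-MB-468 controls, a log2 difference of -1.01 (SE 0.12, edgeR adjusted p 1.1e-06). CARS2 stood at -0.66 and LARS2 at -0.38. The LARS2 call was lost without HCC1806 control replicate 1 or 3 or MDA-MB-468 control replicate 1 or 2, where its adjusted p by edgeR reached 0.145. The SARS2 call was lost without HCC1806 control replicate 2 or MDA-MB-468 control replicate 1. NARS2, at -0.30, passed in 6 of 18 alternatives. With library size only, AARS, AARS2, FARS2 and SARS2 lost the call. When genes averaging under 50 counts were left out, these 4 and EARS2 lost it, with adjusted p by edgeR of 0.144, 0.202, 0.160, 0.231 and 0.0616, and NARS2 passed.

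**Figure D1:**
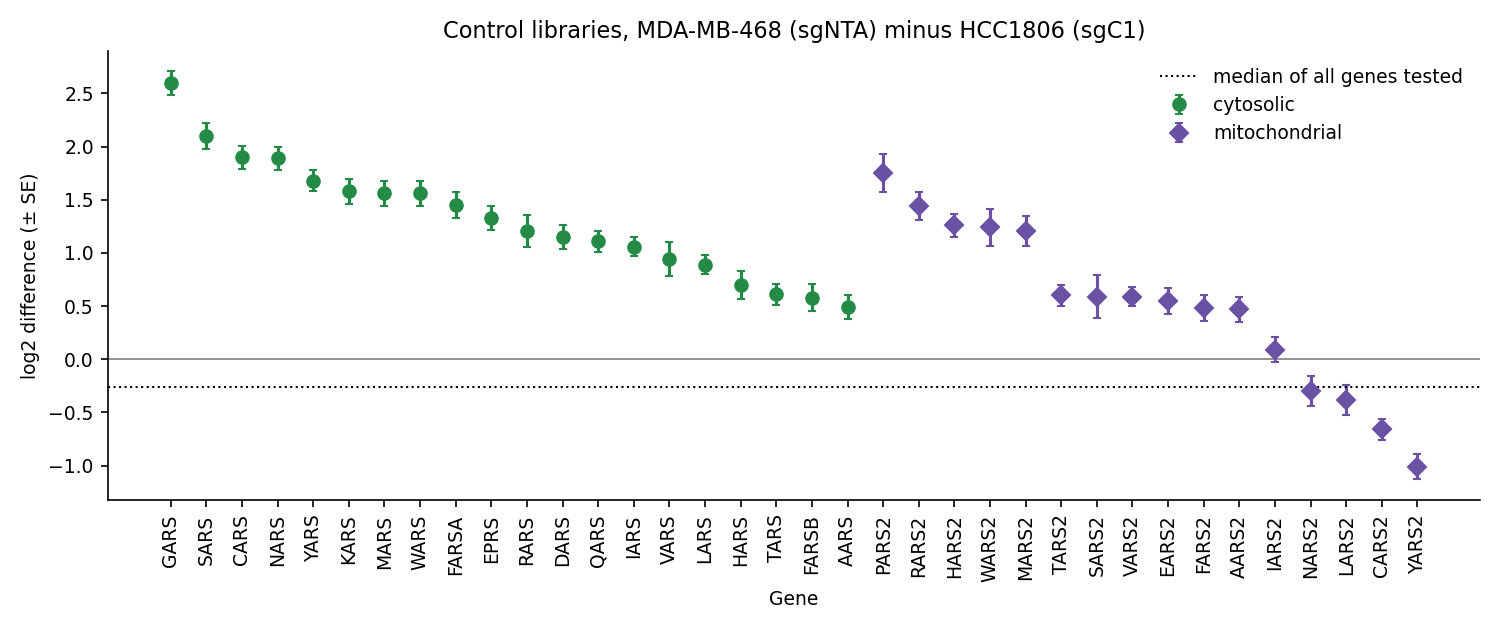
Log2 difference between MDA-MB-468 and HCC1806 control libraries for each of the 36 genes (y axis, log2 scale; bars are SE from the edgeR model of all 12 libraries), with cytosolic genes as green circles, mitochondrial genes as purple diamonds and the median of all genes as a dotted line. All 20 cytosolic genes lie above 0, from 0.49 to 2.60, while the mitochondrial genes spread from -1.01 to 1.75.

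Per kilobase of summed exon length the order of the genes also differed between the lines. In HCC1806 controls the highest levels were those of IARS2, the mitochondrial isoleucine enzyme (53.3 ± 8.13 CPM per kb; SD, n = 3), AARS, the alanine enzyme (53.0 ± 6.33), and EPRS, the glutamate and proline enzyme (35.4 ± 3.13). The first and second do not differ beyond their spread, nor does EPRS from the next gene, IARS (34.5 ± 2.98). The lowest were PARS2 (2.27 ± 0.378), SARS2 (2.31 ± 0.549) and WARS2 (2.51 ± 0.532), the mitochondrial proline, serine and tryptophan enzymes, which overlap in spread. In MDA-MB-468 controls GARS (101 ± 2.99), EPRS (89.2 ± 1.13) and SARS (83.2 ± 3.06) were highest, each apart from the next by more than the SDs. SARS2 (3.48 ± 0.586), LARS2 (3.73 ± 0.0359) and WARS2 (5.93 ± 0.607) were lowest there, the first 2 of them within their spread and WARS2 within that of FARS2 (6.01 ± 0.00498) and YARS2 (6.15 ± 0.467). The median gene of the cytosolic list stood at 18.2 CPM per kb in HCC1806 controls and 46.0 in MDA-MB-468 controls, and that of the mitochondrial list at 5.95 and 8.10. GARS moved from rank 13 of 36 in HCC1806 to rank 1 in MDA-MB-468, and IARS2 from rank 1 to rank 9. SARS2 and VARS2 share 1492 and 1858 exonic bases with another gene on the same strand, AC011455.2 and GTF2H4, so their levels are uncertain.

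**Figure D2:**
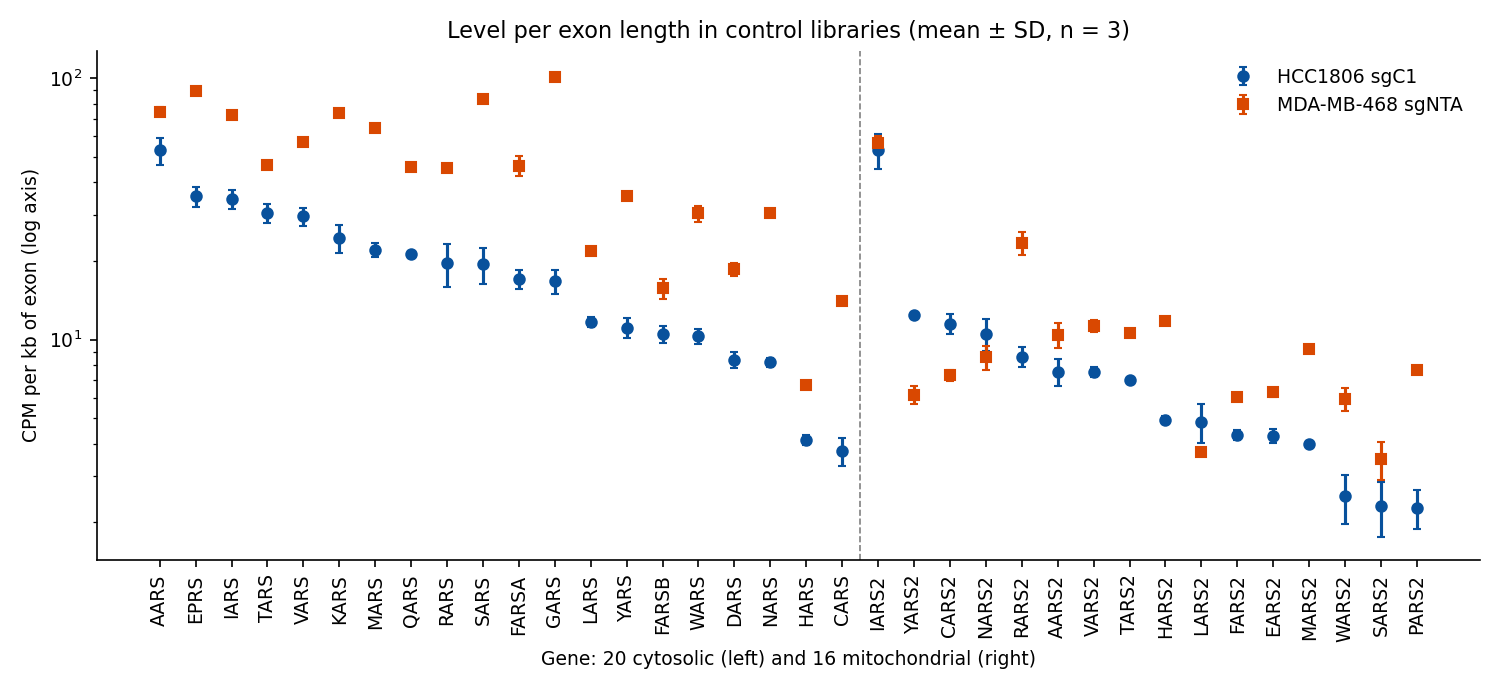
Level of each gene in control libraries, in TMM-scaled CPM per kilobase of summed exon length (log y axis; points are means of 3 libraries, bars are SD), with blue circles for HCC1806 and orange squares for MDA-MB-468. IARS2 is the only mitochondrial gene among the 9 highest in either line, at 53.3 and 56.7.

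For 13 pairs of a cytosolic and a mitochondrial gene of the same name, differing only in the final 2, the ratio per kilobase could be set side by side. FARSA, FARSB and EPRS, and FARS2, EARS2 and PARS2, are not among these pairs. The cytosolic gene was the higher of the pair in 8 of the 13 in HCC1806 controls and in 12 of 13 in MDA-MB-468 controls, where the exception was HARS against HARS2 (ratio 0.565 ± 0.0138; SD, n = 3). These 2 histidine enzymes lie head to head and share 437 exonic bases on opposite strands. The order within a pair depends on the exon length used. In CPM without that division, HARS was above HARS2 in controls of HCC1806 (32.4 against 18.4) and MDA-MB-468 (52.5 against 44.2). In HCC1806 controls YARS (90.9 CPM) was likewise above YARS2 (26.6), while CARS (37.5) stayed below CARS2 (121). IARS (255) and NARS (33.5) there stood close to IARS2 (222) and NARS2 (33.2). The tyrosine pair YARS and YARS2 had a ratio of 0.897 ± 0.109 in HCC1806 controls and 5.79 ± 0.521 in MDA-MB-468 controls. For the cysteine pair CARS and CARS2 the ratios were 0.325 ± 0.0370 and 1.92 ± 0.0917.

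In HCC1806 the comparison of depleted with control cells asked which synthetases moved when PACT was depleted. The tryptophan enzyme WARS and the cysteine enzyme CARS were higher and the mitochondrial isoleucine enzyme IARS2 was lower, by log2 values of 0.66, 0.56 and -0.68, and the other 33 genes lay between -0.29 and 0.38. With HCC1806 fitted alone none of the 36 passed (edgeR, adjusted p under 0.05), where 74 of 23485 genes or 0.315% did; 4 cytosolic genes and 1 mitochondrial gene had an unadjusted p under 0.05, as did 2696 of all genes. The replicate number was also used as a block, although the labels do not say what the numbers share. Depleted replicate 3 deviated from its group more like control replicate 2 (correlation 0.415) than like control replicate 3 (0.158). With this block WARS and CARS were called higher and IARS2 lower, and so were 1.37% and 1.48% of all genes. The same 3 genes and directions were called by 1 model of all 12 libraries (2.49% of genes) and by DESeq2 (1.47%). The model of all 12 libraries uses 1 spread for both lines, with a biological coefficient of variation of 0.171 against 0.204 for HCC1806 alone. The directions of WARS, CARS and IARS2 were kept in all 14 alternatives tried, which refit the same counts. Leaving out 1 library, as 6 of these do, could hardly reverse genes whose groups do not overlap.

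WARS measured 65.3, 61.5 and 70.3 CPM in the controls and 116, 101 and 91.6 in the depleted libraries, for replicates 1 to 3. Every depleted library lay above every control library. Its log2 fold change was 0.66 (SE 0.13, edgeR adjusted p 0.0668), and 0.66 (SE 0.12, adjusted p 0.00954) with the replicate block. Over all 14 alternatives its adjusted p ran from 4.2e-04 to 0.330, the latter without control replicate 2. WARS (chromosome 14, 100333788 to 100376805, minus strand) shares 672 exonic bases with AL157871.4 and WDR25 on the other strand, and the strand setting of the counting is not given in the sources used here.

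CARS measured 33.2, 37.0 and 42.4 CPM in the controls and 52.0, 58.1 and 54.6 in the depleted libraries, again without overlap. Its log2 fold change was 0.56 (SE 0.13, edgeR adjusted p 0.140), and 0.57 (SE 0.11, adjusted p 0.0189) with the block. The alternatives gave adjusted p from 9.0e-04 to 0.427, the highest without depleted replicate 2. CARS stands on chromosome 11 from 3000922 to 3057613, minus strand. The core printed above spans the start in 1 of its 2 RefSeq windows, which lies inside these limits.

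IARS2 measured 255, 223 and 188 CPM in the controls and 128, 157 and 127 in the depleted libraries. Here every depleted library lay below every control library, although the controls spread over 188 to 255. The log2 fold change was -0.68 (SE 0.14, edgeR adjusted p 0.103), and -0.67 (SE 0.12, adjusted p 0.00898) with the block, and the alternatives ran from 2.8e-04 to 0.374, the highest without control replicate 1. In MDA-MB-468 the same gene measured 220.2, 250.2 and 237 CPM in the controls and 239, 222 and 243 in the depleted libraries, a log2 fold change of 0.01 (SE 0.07). The difference between the lines was 0.68 (SE 0.17, edgeR adjusted p 0.152) in the model of all 12 libraries, where 0.122% of genes were called. It passed with the replicate block (adjusted p 0.0221, where 1.00% of genes were called) and with DESeq2 (0.0255, where 0.659% were), and over 18 alternatives its adjusted p ran from 0.00999 to 0.403. IARS2 (chromosome 1, 220094102 to 220148041, plus strand) has no exonic overlap. Its neighbours BPNT1 and RAB3GAP2, chosen after the values of the synthetases were seen, had log2 fold changes of -0.05 and 0.00 in HCC1806.

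**Figure D3:**
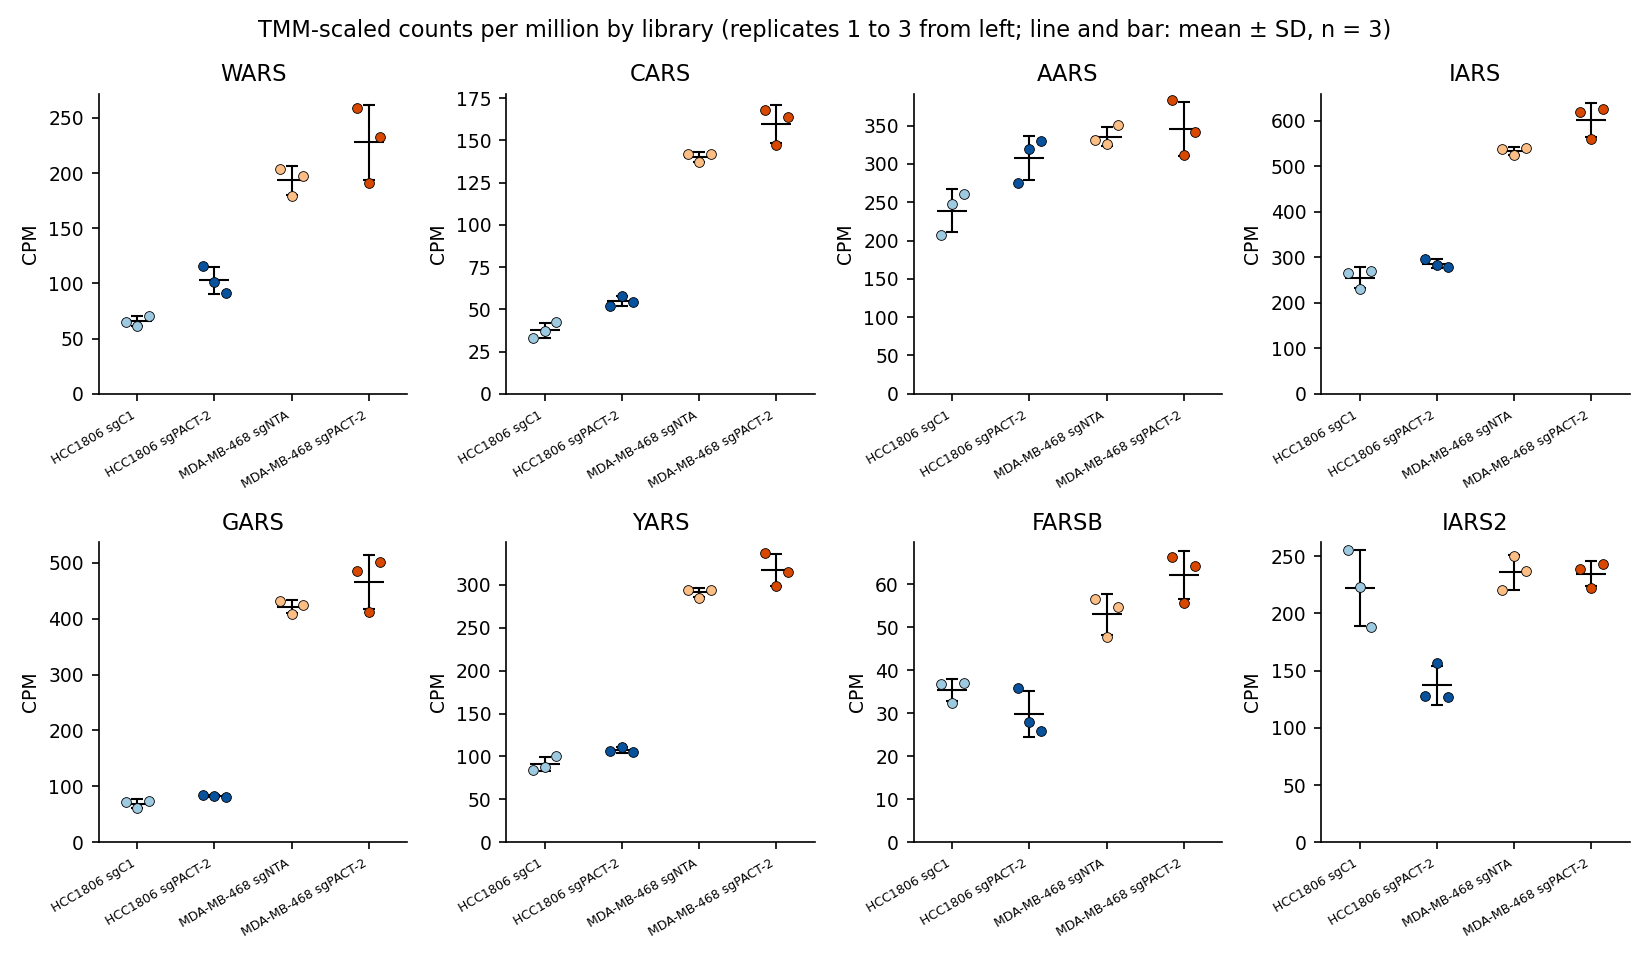
TMM-scaled CPM of 8 synthetase genes in each of the 12 libraries (linear axes from 0; points are libraries, line and bar are mean ± SD, n = 3). In HCC1806 the depleted libraries of WARS (91.6 to 116) lie above the controls (61.5 to 70.3) and those of IARS2 (127 to 157) below them (188 to 255), while IARS2 overlaps between the MDA-MB-468 groups.

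Besides WARS and CARS, 4 more cytosolic genes had no overlap between the groups of HCC1806 with higher depleted libraries. AARS measured 207, 248 and 261 CPM against 275, 319 and 329.6 (log2 fold change 0.38, SE 0.14, edgeR adjusted p 0.324 and 0.0594 with the block). GARS stood at 72.6, 60.8 and 74.3 against 85.1, 82.6 and 81.1, with a log2 fold change of 0.28. For IARS and YARS, the isoleucine and tyrosine enzymes, the log2 fold changes were 0.18 and 0.26. That is 6 of 20 cytosolic genes higher without overlap and 0 of 16 mitochondrial genes, where 8.67% of all genes tested were. The glutamine enzyme QARS in the cytosolic list and IARS2 in the mitochondrial list were lower without overlap, where 8.95% of all genes were. QARS measured 96.9, 103 and 99.8 CPM against 93.0, 85.2 and 76.9, with a log2 fold change of -0.22.

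With the block in 1 model of all 12 libraries, an alternative added after seeing the data, AARS (adjusted p 0.00752 by edgeR) was called higher and RARS, the arginine enzyme, lower, besides the 3 genes above, where 7.20% of genes were called. That model too uses 1 spread for both lines. RARS measured 81.1, 63.1 and 56.8 CPM against 65.5, 54.8 and 42.6. Its groups overlapped, and its log2 fold change was -0.29 (SE 0.17, edgeR adjusted p 0.589) with the line alone and -0.31 (SE 0.09, adjusted p 0.0345) in that model, the only one of 14 alternatives that called it.

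The rest of the cytosolic list went both ways in HCC1806. In all, 10 of the 20 log2 fold changes were positive, with a median of 0.02, which was also the median of all genes. Of the 16 mitochondrial genes 4 were positive, with a median of -0.06. The largest positive value among them was that of PARS2 (0.25, SE 0.24), whose libraries overlapped. VARS, the valine enzyme, had the widest spread in the depleted group: 226, 162 and 123 CPM, against 187, 163 and 190.2 in the controls. Depleted replicate 1 was the highest of its group in 15 of 20 cytosolic and 10 of 16 mitochondrial genes, and depleted replicate 3 the lowest in 14 and 12. Without depleted replicate 1, WARS and CARS passed in HCC1806 (edgeR adjusted p 0.0369 and 0.0449), and 428 genes or 1.74% were called in place of 74. MARS2, the mitochondrial methionine enzyme, lies on chromosome 2 in the stretch from 170 to 200 Mb, where the median log2 fold change of 110 genes was -0.29 in this line; its own was -0.09 (SE 0.19).

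**Figure D4:**
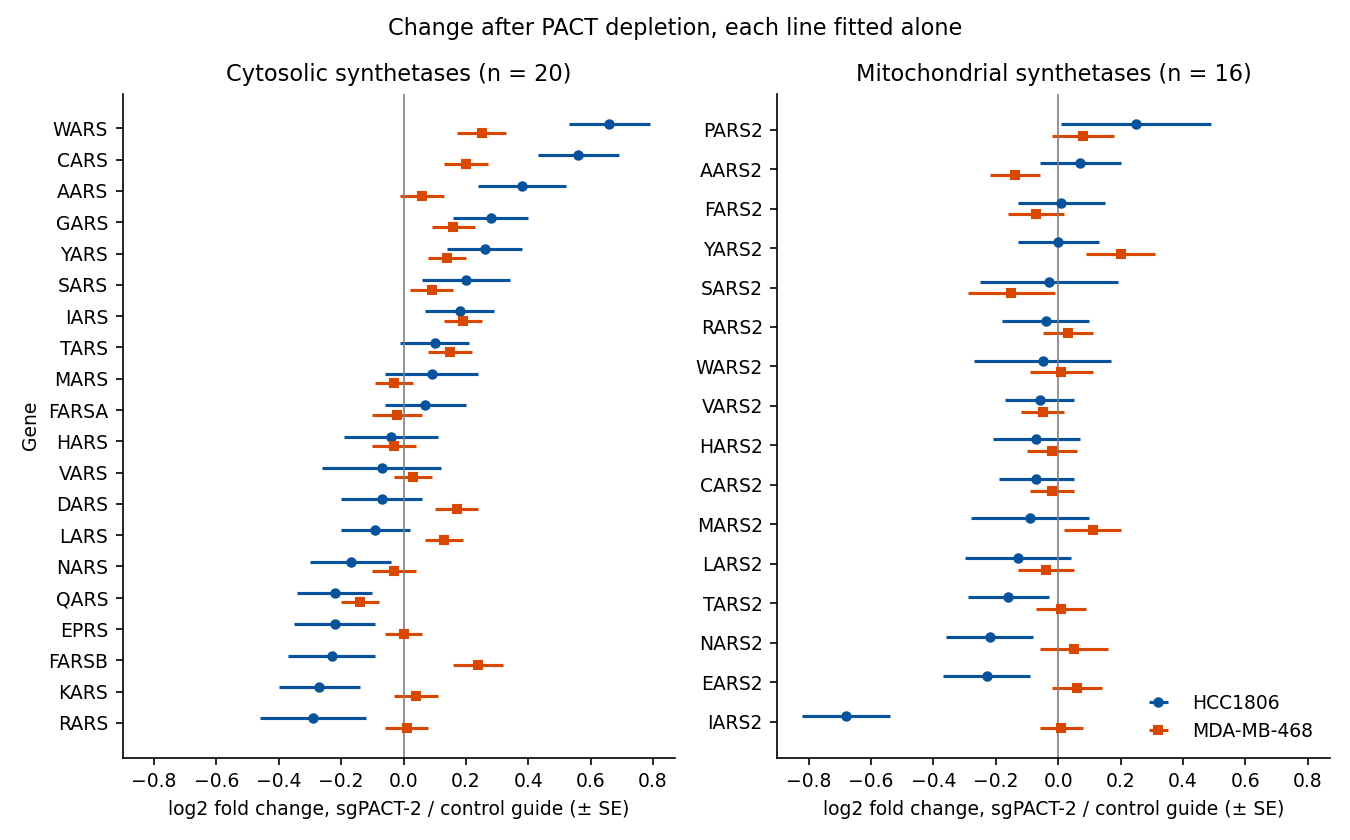
Log2 fold change of PACT-depleted against control libraries (x axis, log2 scale) of each of the 36 genes, cytosolic on the left and mitochondrial on the right, with blue circles for HCC1806 and orange squares for MDA-MB-468 (bars are SE, each line fitted alone with edgeR). In HCC1806 WARS (0.66), CARS (0.56) and IARS2 (-0.68) lie outside the range of the other genes, and in MDA-MB-468 all values lie between -0.15 and 0.25.

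In MDA-MB-468 the changes were smaller, and those with the smallest p belonged to the cytosolic list. WARS, FARSB, CARS and IARS were higher in the depleted cells, by log2 values of 0.25, 0.24, 0.20 and 0.19. With the line fitted alone none of the 36 passed (edgeR), where 323 of 21404 genes or 1.51% did; 10 of the 20 cytosolic and 0 of the 16 mitochondrial genes had an unadjusted p under 0.05, as did 2267 of all genes. With the replicate block these 4 were called higher, and so were 3.03% of all genes. DESeq2 called IARS alone (adjusted p 0.0328), with 2.07% of genes called.

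WARS measured 204, 179 and 197 CPM in the MDA-MB-468 controls and 259, 191 and 233 in the depleted libraries. These groups overlap, since depleted replicate 2 at 191 lies under 2 of the controls. The log2 fold change was 0.25 (SE 0.08, edgeR adjusted p 0.115), and 0.25 (SE 0.05, adjusted p 3.1e-04) with the block, and the alternatives ran from 3.1e-04 to 0.959. Without depleted replicate 2 it passed by edgeR (adjusted p 0.0127), as did 1.37% of genes. That library was the lowest of its group in 18 of 20 cytosolic and 10 of 16 mitochondrial genes.

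FARSB, which encodes the beta subunit of the phenylalanine enzyme, measured 56.7, 47.7 and 54.7 CPM against 66.4, 55.8 and 64.2. Each depleted library exceeded the control of the same number, while the groups overlapped. Its log2 fold change was 0.24 (SE 0.08, edgeR adjusted p 0.151), and adjusted p was 0.00569 with the block and 1.00 in 1 model of all 12 libraries, the extremes of its 14 alternatives. FARSA, the gene of the alpha subunit, had -0.02 (SE 0.08). In HCC1806 FARSB stood at -0.23 (SE 0.14), and the difference between the lines was 0.48 (SE 0.18, edgeR adjusted p 0.452).

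CARS stood at 142, 137 and 142 CPM against 168, 147 and 164, and IARS at 537, 524 and 539.8 against 620.3, 559 and 627. In both genes every depleted library lay above every control. The log2 fold change of CARS was 0.20 (SE 0.07, edgeR adjusted p 0.165 and 0.0108 with the block, 0.0108 to 1.00 over the alternatives). For IARS it was 0.19 (SE 0.06, edgeR adjusted p 0.152 and 0.0104 with the block, 0.0104 to 0.991 over the alternatives). LARS, the leucine enzyme, and YARS were also higher without overlap, as were the mitochondrial MARS2 and YARS2, which makes 4 of 20 and 2 of 16 genes, where 6.79% of all genes were. YARS2 had the smallest p of the mitochondrial list: 12.1, 13.8 and 13.8 CPM against 13.9, 15.6 and 15.7 (log2 fold change 0.20, SE 0.11, edgeR adjusted p 0.547). QARS was again lower without overlap, at 209, 217 and 220.0 against 204, 180.5 and 195 (log2 fold change -0.14), alone of the 36 genes, where 7.96% of all genes were.

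Over the whole list 15 of 20 cytosolic genes were positive in MDA-MB-468, with a median of 0.07 beside -0.00 for all genes, and 9 of 16 mitochondrial genes, with a median of 0.01. Of the cytosolic genes 8 were positive in both lines, 3 were negative in both, and 6 were negative in HCC1806 and positive in MDA-MB-468. No synthetase was called in the difference between the lines with all 12 libraries in 1 edgeR model, where 3 cytosolic genes and 1 mitochondrial gene had an unadjusted p under 0.05, as did 2269 of all genes. The medians of this difference were 0.03 for the cytosolic and 0.07 for the mitochondrial genes, beside -0.01 for all genes.

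Set against each other within a library, the lists shifted in HCC1806. The mean log2 CPM of the cytosolic genes exceeded that of the mitochondrial genes by 1.62, 1.65 and 1.66 in the controls and by 1.80, 1.76 and 1.80 in the depleted libraries. These groups do not overlap. Without WARS, CARS and IARS2, a choice made after their values were seen, the differences were 1.93, 1.94 and 1.91 against 1.98, 1.96 and 1.98, again without overlap. The group means, 1.64 and 1.79 with the 3 genes, were then 1.93 and 1.97. In MDA-MB-468 the differences of the full lists were 2.50, 2.43 and 2.50 against 2.61, 2.49 and 2.55, which overlap as groups. Without the 3 genes they were 2.71, 2.65 and 2.71 against 2.80, 2.69 and 2.75, which overlap likewise. Each depleted library exceeded the control of its number either way. The summed CPM of the cytosolic list was 2072 ± 77.5 in control and 2183 ± 156 in depleted HCC1806 cells (SD, n = 3), a difference within the spread. That of the mitochondrial list was 680.1 ± 38.4 and 568 ± 37.3, without overlap, and IARS2 alone made up 222 and 137 of these.

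**Figure D5:**
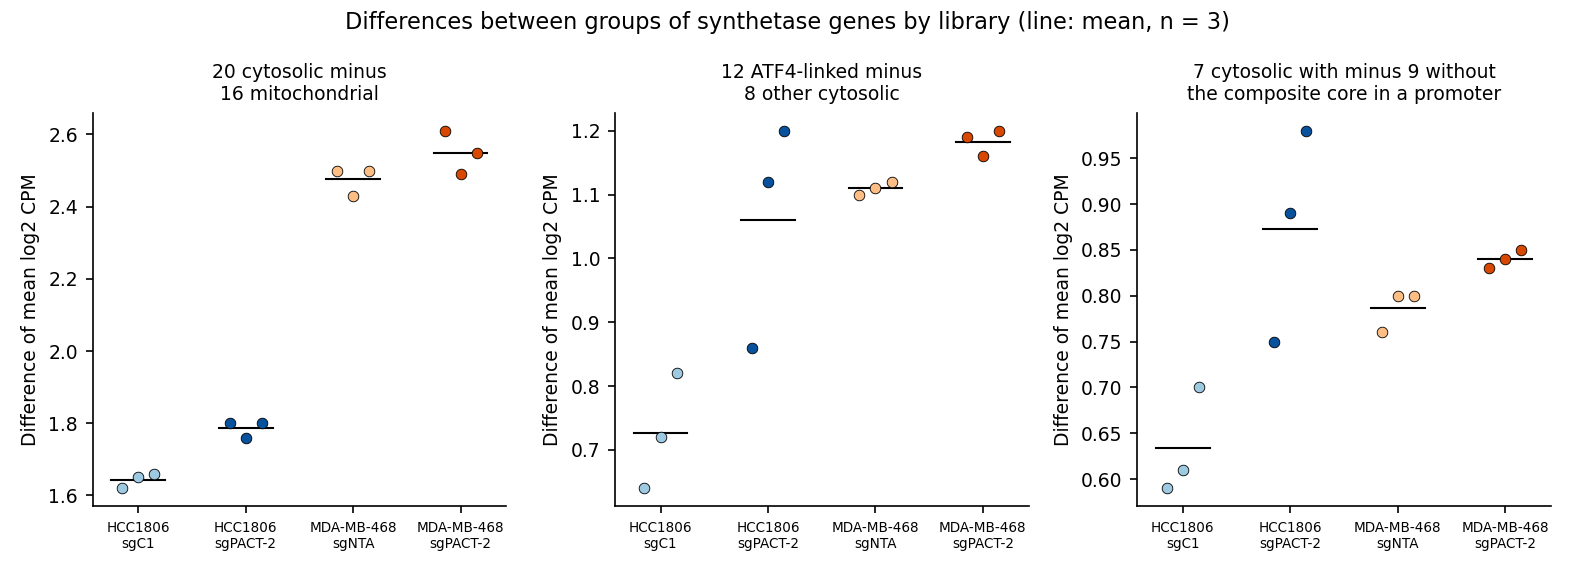
Difference of mean log2 CPM between groups of synthetase genes, by library (points are the 12 libraries, lines are means of 3; y axes in log2 units that do not start at 0). For cytosolic minus mitochondrial genes the HCC1806 depleted libraries lie at 1.76 to 1.80 and the controls at 1.62 to 1.66; for ATF4-linked minus other cytosolic genes they lie at 0.86 to 1.20 and 0.64 to 0.82, and for genes with minus without the composite core at 0.75 to 0.98 and 0.59 to 0.70.

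Within the cytosolic list the genes were divided by what is known of them. The 12 genes known to be linked to ATF4 (AARS, CARS, EPRS, GARS, IARS, LARS, MARS, NARS, SARS, TARS, WARS and YARS) had a median log2 fold change of 0.19 with 9 positive in HCC1806 and 0.14 with 10 positive in MDA-MB-468. For the other 8 the medians were -0.14, with 1 positive, and 0.02, with 5 positive. The 6 cytosolic genes that were higher without overlap in HCC1806 belonged to the 12, where 8.67% of all genes were, and so did the 4 in MDA-MB-468, where 6.79% were. By library, the mean log2 CPM of the 12 exceeded that of the other 8 by 0.64, 0.72 and 0.82 in HCC1806 controls and by 0.86, 1.12 and 1.20 in depleted libraries. In MDA-MB-468 the values were 1.10, 1.11 and 1.12 against 1.19, 1.16 and 1.20. Neither line's groups overlap. Without WARS and CARS the HCC1806 groups did overlap, at 0.86, 0.92 and 1.01 against 0.98, 1.23 and 1.32, although each depleted library exceeded the control of its number. Those of MDA-MB-468 did not overlap, at 1.25, 1.27 and 1.28 against 1.31, 1.31 and 1.32.

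The 7 cytosolic genes with the composite core in their promoter window had a median log2 fold change of 0.18 in HCC1806, with 6 positive and NARS (-0.17) negative. The 9 without it had a median of -0.22, with 3 positive, among them WARS, the gene with the largest value. In MDA-MB-468 the medians were 0.15 and 0.01. By library the mean log2 CPM of the 7 exceeded that of the 9 by 0.59, 0.61 and 0.70 in HCC1806 controls and by 0.75, 0.89 and 0.98 in depleted libraries, and by 0.76, 0.80 and 0.80 against 0.83, 0.84 and 0.85 in MDA-MB-468, with no overlap in either line. All 7 are among the 12 ATF4-linked genes, so these groupings are not independent. YARS2, the mitochondrial gene with the core, had 0.00 (SE 0.13) and 0.20 (SE 0.11). Class I and class II were each given 10 cytosolic genes, with EPRS, which charges both glutamate and proline, counted in class I alone. Their medians hardly differed: 0.01 and 0.02 in HCC1806, and 0.08 and 0.07 in MDA-MB-468. The 8 enzymes of the multi-synthetase complex had medians of -0.15 and 0.02, and the 12 outside it 0.15 and 0.11. These groups share genes, and MARS shares 874 exonic bases with the stress gene DDIT3 and with ARHGAP9 on the other strand. MARS itself had 0.09 (SE 0.15) and -0.03 (SE 0.06).

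None of 13 related genes was called by edgeR with each line alone or by DESeq2. The tRNA exporter XPOT in MDA-MB-468 was the only one with an unadjusted p under 0.05 by edgeR, and it was called higher with the replicate block. The 13 genes comprise the scaffold proteins of the complex, the amidotransferase that makes mitochondrial glutaminyl-tRNA, editing and selenocysteine factors, MTFMT and XPOT. Their medians were -0.03 in HCC1806 and 0.08 in MDA-MB-468. XPOT had a log2 fold change of 0.21 (SE 0.07, edgeR adjusted p 0.138). Between the control lines 8 of the 13 were called higher in MDA-MB-468, where 34.2% of all genes tested were. The 2 genes SEPSECS and AARSD1 were called lower, where 40.1% of all genes were.

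Some other genes of the stress response had larger changes in the same libraries. Of 10 such genes 4 were called higher in HCC1806 (edgeR), where 0.277% of all genes tested were. ATF3 rose by a log2 fold change of 2.57, CHAC1 by 2.03, SESN2 by 1.23 and TRIB3 by 1.03. In MDA-MB-468 there were 6, where 1.21% of all genes tested were called higher. Here ATF3 rose by 1.64, DDIT3 by 0.68, TRIB3 by 0.53, SESN2 by 0.51, CHAC1 by 0.39 and SLC7A11 by 0.37. The 10 genes belong to a pathway already known to move in these data, so the list is no independent evidence. The transcript of ATF4 itself, whose control is mainly translational, measured -0.01 (SE 0.11) and -0.05 (SE 0.06). ASNS, the asparagine synthetase gene, had 1.04 (SE 0.19, edgeR adjusted p 0.0537) in HCC1806 and 0.08 (SE 0.07) in MDA-MB-468. DDIT3 had 0.81 (SE 0.15, edgeR adjusted p 0.0607) in HCC1806. PSAT1 and PHGDH hardly moved, at 0.00 and 0.01 in HCC1806 and 0.08 and -0.05 in MDA-MB-468. SLC7A11 stood at -0.10 (SE 0.15) in HCC1806.

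The choice of scaling bears on the direction of small values. The 36 genes took 0.286% to 0.295% of counts in control and 0.310% to 0.322% in depleted libraries of HCC1806. For MDA-MB-468 the shares were 0.515% to 0.530% and 0.539% to 0.572%. With library size in place of TMM the median of all genes in HCC1806 was 0.12 in place of 0.02, that of the cytosolic genes 0.12 with 14 positive, and that of the mitochondrial genes 0.04 with 11 positive in place of -0.06. Relative to all genes the mitochondrial median thus stayed below. Reads of the mitochondrial genome made up 11.6% to 15.0% of an HCC1806 library and 6.31% to 8.90% of an MDA-MB-468 library, and their part in these results was not tested.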

How the data were processed

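Total RNA of 12 libraries was depleted of rRNA and made into libraries with a NEBNext Ultra II kit, per the labels' protocols. The authors deposited raw counts of reads per gene, without normalization. Per the submitters' processing notes the tools include Trimmomatic 0.36, STAR 2.5.2b and featureCounts of Subread 1.5.2, with GRCh38; the strand setting is not given in the sources used here. Gene positions and exon lengths came from GENCODE 29 by Ensembl ID (56898 of 57500 genes matched). The 485 genes without a name held 0.0284% of counts.

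Counts were fitted with edgeR 4.0.16 in R 4.3.3 (filterByExpr, TMM, quasi-likelihood, two-sided), each line alone for depleted against control and all 12 libraries for the difference between lines and between controls. The Benjamini-Hochberg adjustment covered every gene tested, and an adjusted p under 0.05 made a call. Means over a list of log2 CPM used an offset of 0.5. Alternatives were 1 model of all 12 libraries, DESeq2 1.42.0, RLE size factors, library size only, no filter, a mean of at least 50 counts, the replicate number as a block, and leaving out each library. The block within 1 model of all 12 libraries was added after seeing the data. Figures were drawn with matplotlib 3.10.9. The fits were tested on simulated data.

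The replicate numbers come from the labels, which do not say what they share. Over 15918 genes the deviations of same-numbered control and depleted libraries from their group means correlated at 0.533, 0.350 and 0.158 in HCC1806 and 0.189, 0.104 and 0.178 in MDA-MB-468, all over 0.1, so the numbers were taken to pair the libraries. Depleted replicate 3 of HCC1806 correlated more with control replicate 2 (0.415) than with its own number.

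Every synthetase is accounted for. Full values were given for those called on depletion (none with each line alone), for the smallest p per list and line, and for the 3 highest and 3 lowest per length; single values of the others were chosen after they were seen. The members, the lists and the separate fit of each line were chosen with earlier results of these data known. One gene of the related list is not reported here.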

Additional observations from a re-analysis of the deposited data

How the results depend on the processing

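The count of genes called in HCC1806, 74 with the line alone, was 672 in 1 model of all 12 libraries, 345 by DESeq2, 118 with library size only, 645 without a filter, 46 at a mean of at least 50 counts, 668 with the replicate block, 1947 with the block in 1 model, and 18 to 428 without 1 library. Cytosolic synthetases called there were 2, 2, 1, 2, 0, 2 and 4 in the same order and 0 to 2 without 1 library. Mitochondrial ones were 1 in 1 model, by DESeq2, without a filter and with either block, and 0 without any 1 library. In MDA-MB-468 the 323 genes became 46 in 1 model, 1031 with the block, 102 with the block in 1 model, and 158 to 315 without 1 library. The count there was 442 by DESeq2 (2.07%), 395 with library size only (1.85%) and 407 without a filter (1.08%). Cytosolic synthetases called were 1 by DESeq2, 3 with library size only, 1 without a filter, 4 with the block, and 0 to 1 without 1 library. For the difference between lines the 33 genes became 178 by DESeq2, 275 without a filter, 271 with the block, and 9 to 168 without 1 library; 1 synthetase, IARS2, was called in the first 3 of these. The number of genes called between control lines was 13022 at a mean of at least 50 counts. Why the counts moved was not tested, apart from the fewer genes or libraries that some alternatives hold by construction. The SE of a member's log2 fold change was 0.11 to 0.24 for HCC1806 and 0.06 to 0.14 for MDA-MB-468, which limits what 3 libraries per group could show.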
